A study of Rattus norvegicus with 16 samples.

Results

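The genes described here encode the proteins of the mitochondrial ribosome, read out in rat spinal dorsal horn. They were found by name and annotation: all protein-coding rows of the deposited RNA immunoprecipitation (RIP) table whose symbol begins with Mrpl or Mrps and a number. This gave 62 of the 8671 rows of that table, of which 8420 were protein-coding. By symbol, 36 belong to the large subunit and 26 to the small subunit. RefSeq (GRCr8) lists 78 rat genes of this naming. All 62 were matched to it, and the other 16 had no row in the RIP table and were not analysed here.

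The series held 16 libraries of total RNA, all labelled dorsal horn and wild type (WT). For ac4C (N4-acetylcytidine, an acetylated cytidine in RNA), 3 replicates with bone cancer pain and 3 normal control replicates each gave an immunoprecipitated (IP) library and its input, which makes 12 libraries. The other 4 libraries were 2 IP and 2 input libraries of a RIP in bone cancer pain, with no control animals. In the peak lists, bone cancer pain is abbreviated CFA where the labels say CIBP, and the groups here follow the labels. The tumour cells, the time after inoculation and the strain, age and sex of the rats are not given in the sources used here. The same holds for the RIP antibody's target and for the number of rats behind a replicate, so p-values measure only the spread between these lists. The design text speaks of interfering with the expression of a gene, and no label places a sample in such a group.

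Mitochondrial ribosomes sit in the mitochondrial matrix and translate the few mRNAs that mitochondrial DNA encodes, all of them for membrane subunits of oxidative phosphorylation. Their rRNAs come from mitochondrial DNA, while every protein is encoded in the nucleus, translated in the cytoplasm and imported. Some of these proteins descend from bacterial ribosomal proteins, and others exist only in mitochondria. Neurons of the dorsal horn, where pain fibres make their first synapse, depend on oxidative phosphorylation for synaptic activity.

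Nuclear genes for mitochondrial proteins are known for promoters with motifs of YY1, ETS factors and NRF1, so promoter letters are shown before the values. RefSeq promoters (GRCr8, 250 bases before to 50 after the gene start) were available for 49 of the 62 genes, in 50 promoters. The letters AAGATGGC, a form of the YY1 motif, were searched on both strands and found in 11 of the 50 (22%). The share was 6.05% of 7221 promoters of protein-coding genes in the RIP table, 3.17% of all 33469 promoters and 5.77% of 52 promoters of cytoplasmic ribosomal protein genes. In 9 of the 11 the match began after the gene start, where the letters can hold a start codon. The letters CCGGAAG, a core of ETS-factor motifs, were found on either strand in 17 of the 50 (34.0%), against 16.7% of table promoters, 8.75% of all promoters and 32.7% of cytoplasmic ribosomal promoters. Both motifs occurred in Mrpl48, Mrps18a, Mrps18b and Mrps27, and at least 1 of them in 24 genes. The 30-base windows below belong to Mrps27, which holds both motifs, and to genes whose RIP values or ac4C peaks are described further on. Each is written 5′ to 3′ along the gene, with the YY1-type or ETS-type letters in capitals; in Mrps18c the ETS-type match is on the opposite strand.

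Mrpl37, YY1 type: ctgcccgggcaAAGATGGCggcgtccaggt
Mrps27, YY1 type: tggtacgctccAAGATGGCggcccccatgg
Mrps18a, YY1 type: ggtgtgttcccAAGATGGCggccctcaggg
Mrpl46, YY1 type: gggaagacggaAAGATGGCggcgcccatag
Mrps7, YY1 type: tgatagcggccAAGATGGCtgcccccgcac
Mrpl50, YY1 type: ggagcttgtcgAAGATGGCggcgctgtgtg
Mrpl23, ETS type: tagcgcggcctCCGGAAGcgagggggcgct
Mrpl3, ETS type: tgagaaacggaCCGGAAGtggctcagctgt
Mrpl57, ETS type: aacgctgctagCCGGAAGcagcgcgcgtgc
Mrps18a, ETS type: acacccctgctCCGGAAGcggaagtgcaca
Mrps18c, ETS type: gtgtcacgtgaCTTCCGGcccggggagcgc

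The promoters of these genes lie, in GRCr8, at chr5:127074918-127075217 on the minus strand for Mrpl37, chr2:32473954-32474253 on the plus strand for Mrps27 and chr9:22367331-22367630 on the minus strand for Mrps18a. Those of Mrpl46 (chr1:142116981-142117280, minus), Mrps7 (chr10:101342392-101342691, plus) and Mrpl50 (chr5:68668038-68668337, minus) follow. The ETS-type windows come from Mrpl23 (chr1:207116680-207116979, plus), Mrpl3 (chr8:114548720-114549019, plus), Mrpl57 (chr15:36086207-36086506, plus) and Mrps18c (chr14:9122857-9123156, minus). Of the other searched letters, an NRF1-type motif stood in 12% of the 50 promoters, against 10.6% of table promoters. GGGCGG (SP1 type) stood in 42.0% against 64.4%, and TATAAA in 14.0% against 6.58%. Over all promoters the NRF1-type, SP1-type and TATAAA shares were 4.25%, 33.1% and 14.2%. In cytoplasmic ribosomal promoters they were 9.62%, 57.7% and 11.5%. A start at C followed by 5 pyrimidines, the layout of cytoplasmic ribosomal protein genes, was found in 4.0% of the 50, against 44.2% of cytoplasmic ribosomal promoters and 4.2% of table promoters. These matches describe letters in a window; binding of a factor was not measured.

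**Figure D1:**
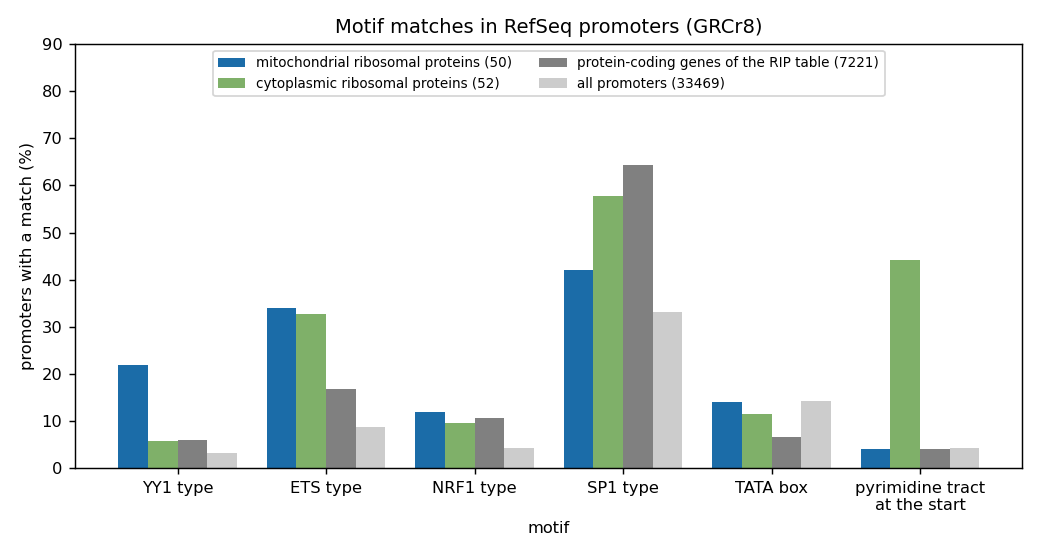
Percent of RefSeq promoters (vertical axis) that hold each motif (horizontal axis), for mitochondrial ribosomal protein genes (blue), cytoplasmic ribosomal protein genes (green), protein-coding genes of the RIP table (dark grey) and all promoters (light grey). The blue bar is the highest of the 4 at the YY1-type (22%) and, by small margins, the ETS-type (34.0%) and NRF1-type letters (12%), and the green bar at the pyrimidine tract (44.2%).

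In the RIP of bone cancer pain the question was which RNAs were recovered with the precipitated protein. Both IP signals exceeded both input signals in 62 of 62 genes. The same was true of 8419 of 8420 protein-coding rows (100%), because a log2 fold above 1 with p under 0.05 was the condition for a row, so this enrichment is a description and was not tested. In the authors' deposited table the 62 genes had a median log2 fold of 2.62 (quartiles 2.31 and 2.80; 1.59 to 3.37; SD 0.37 across genes), beside 2.40 for all protein-coding rows (SD 0.47). From the deposited signals, the median log2 ratio of IP over input was 2.59 in pair 1 and 2.60 in pair 2 for the 62 genes, and 2.45 and 2.37 for all protein-coding rows. RNA came from whole dorsal horn, so a fold cannot be assigned to a cell type. Nor does a signal tell cell number from RNA per cell.

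Counts at the ends of the range depended on the pair and the pseudocount. A log2 fold of at least 3 in the authors' deposited table was held by 4 of the 62 genes (6.45%), against 8.04% of protein-coding rows. A fold under 2 was likewise held by 4 (6.45%), against 20.5%, in the authors' deposited table. In pair 1 alone 10 genes (16.1%) reached 3 and 10 lay under 2 (16.1%), against 13.1% and 20.2% of protein-coding rows. In pair 2 alone the counts were 8 (12.9%) and 6 (9.68%), against 9.06% and 23.4%. With a pseudocount of 1 they were 0 and 13 (21.0%), against 2.33% and 43.5%. Taking each pair against its own protein-coding median, 31 genes (50%) lay above in both pairs, 13 (21.0%) below in both and 18 on different sides. Among all protein-coding rows 38% lay above in both and 38% below in both.

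**Figure D2:**
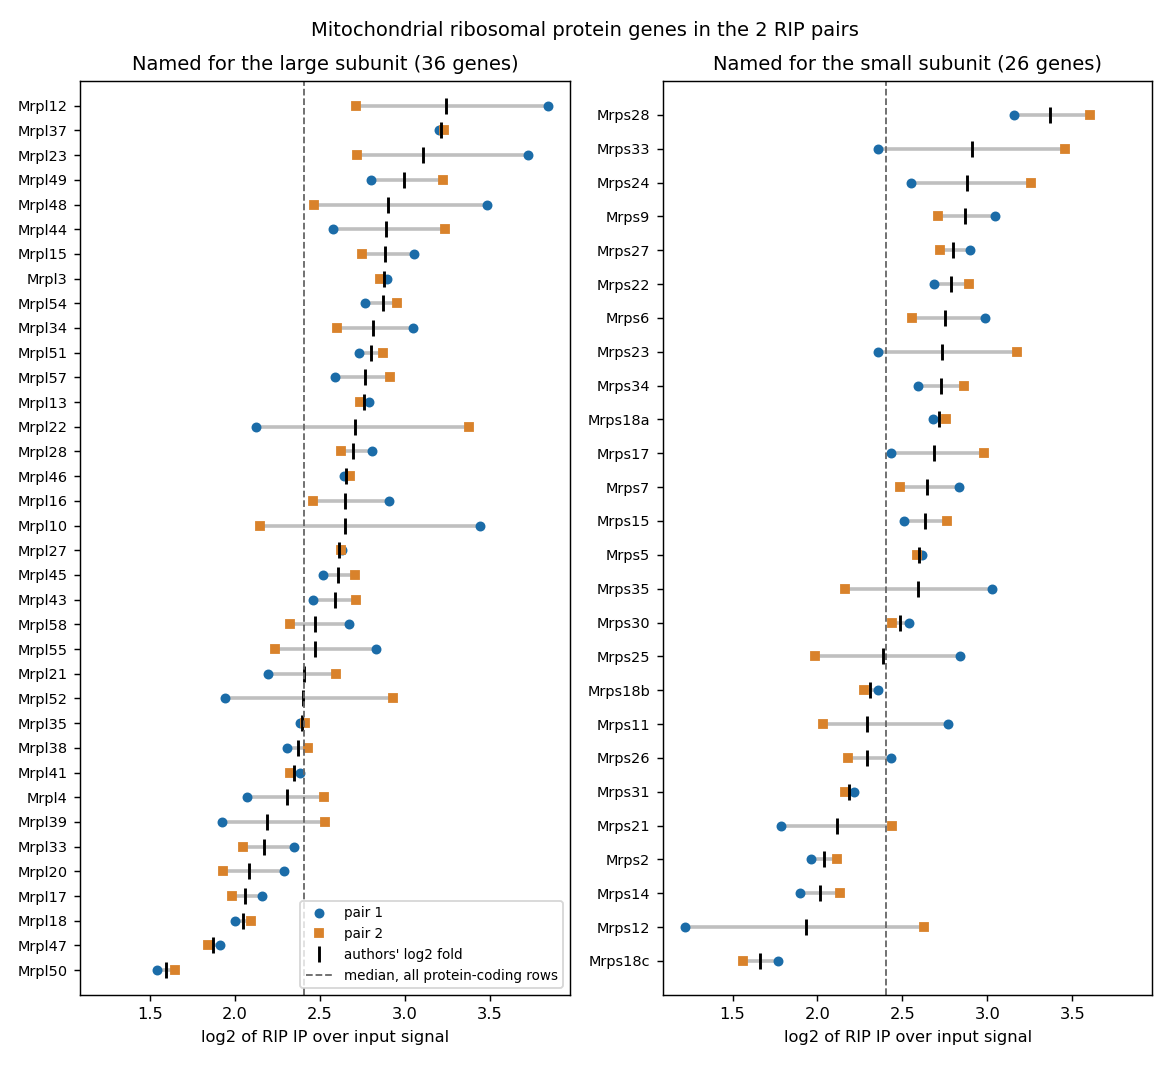
Log2 ratio of RIP IP over input signal (horizontal axis) for each of the 62 genes (rows), in pair 1 (blue circles) and pair 2 (orange squares), with the authors' log2 fold as a black tick and the protein-coding median of 2.40 dashed. Genes run from Mrps28 (3.37) and Mrpl12 (3.24) at the top to Mrpl50 (1.59) and Mrps18c (1.66) at the bottom, and several pairs lie more than 1 log2 unit apart.

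Cytoplasmic ribosomal protein genes and nuclear genes of oxidative phosphorylation, the partners of the mitochondrial ribosome in protein synthesis and respiration, stood higher. In the authors' deposited table the 67 cytoplasmic ribosomal genes had a median log2 fold of 2.94 and the 72 oxidative phosphorylation genes 2.81. Both pairs lay above their medians for 54 of the 67 (80.6%) and 55 of the 72 (76.4%). The median of the mean input signal, which gives no order of abundance since its scaling by length is not stated, was 3.40 for mitochondrial ribosomal, 11.1 for cytoplasmic ribosomal and 13.4 for oxidative phosphorylation genes, and the part of input signal in the fold was not tested.

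By subunit, medians lay close together. In the authors' deposited table the median log2 fold was 2.63 over the 36 large-subunit genes and 2.61 over the 26 small-subunit genes. The difference of 0.016 was not tested, and it was 0.27 over the 32 genes at or above the table's median input. Proteins were also grouped by structural list, as having a bacterial counterpart (bacterial-type) or as mitochondria-specific. In the authors' deposited table, large-subunit medians were 2.63 for 20 bacterial-type and 2.63 for 18 mitochondria-specific proteins. Small-subunit medians were 2.61 for 14 bacterial-type and 2.66 for 10 mitochondria-specific proteins. Both pairs lay above their medians in 12 of 18 mitochondria-specific and 9 of 20 bacterial-type large-subunit genes, and in 3 of 10 mitochondria-specific and 7 of 14 bacterial-type small-subunit genes. These differences were not tested. The mitochondria-specific large-subunit list includes Mrps18a and Mrps30, whose proteins lie in the large subunit of mammalian structures despite their symbols. Mrps18b is in the mitochondria-specific small-subunit list. Since Mrps18a and Mrps18b are paralogs of bacterial S18, these lists do not strictly follow descent.

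Mrps28, a small-subunit protein related to bacterial S1, had the highest fold in the authors' deposited table. Its signal was 14.0 and 16.3 in IP 1 and IP 2, against 1.57 and 1.34 in input 1 and input 2, or log2 ratios of 3.15 and 3.60. Mrpl37, a mitochondria-specific large-subunit protein, had 35.2 and 35.8 in the IP libraries, against 3.83 and 3.81 in the inputs. Its log2 ratios of 3.20 and 3.23 nearly coincided, and with Mrps28 it was 1 of 2 genes with at least 3 in both pairs, a level reached by 4.43% of protein-coding rows. Mrpl49, another mitochondria-specific protein, had signals of 42.1 and 40.9 in IP, against 6.04 and 4.37 in input. Its log2 fold was 3.00 in the authors' deposited table, and its pairs gave 2.80 and 3.23. Mrpl48, also mitochondria-specific, had 47.3 and 43.5 in IP, against 4.22 and 7.87 in input (log2 ratios 3.49 and 2.47).

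The stalk that recruits translation factors to the large subunit is built from Mrpl10, its base, and Mrpl12, which also binds mitochondrial RNA polymerase in human cells. Mrpl12 had 15.1 and 11.0 in IP 1 and IP 2, against 1.05 and 1.67 in the inputs, with log2 ratios of 3.84 in pair 1 and 2.71 in pair 2. Mrpl10 had 22.6 and 22.3 in IP, against 2.08 and 5.04 in input, with ratios of 3.44 and 2.14. Both genes were thus higher in pair 1, by 1.13 and 1.30 log2 units. In Mrpl10 the 2 IP signals were nearly equal and the inputs were far apart. Mrpl11, also looked for as a stalk gene, was not among the 62 genes.

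Mrpl23, Mrpl22 and Mrpl17 encode proteins at the exit tunnel, through which the nascent chain leaves. Mrpl23 had 24.5 and 25.5 in IP, against 1.85 and 3.88 in input (log2 ratios 3.72 and 2.72). Mrpl22 had 11.6 and 15.5 in IP, against 2.66 and 1.49 in input (2.12 and 3.38), so its pairs differed in the opposite direction. Mrpl17 had 62.1 and 67.5 in IP, against 13.9 and 17.1 in input (2.16 and 1.98), below the median in both pairs. Mrpl45, which tethers the ribosome to the inner membrane near the tunnel exit, lay close to the centre of the set. Its signals were 11.7 and 11.4 in IP, against 2.04 and 1.75 in input, with log2 ratios of 2.52 and 2.70. Mrpl44, with an RNase III-like fold, had 10.3 and 11.2 in IP, against 1.72 and 1.19 in input, and a log2 fold of 2.89 in the authors' deposited table.

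Among small-subunit genes, Mrps12 encodes a protein of the decoding centre. Its signals were 6.03 and 10.1 in IP, against 2.59 and 1.64 in input, so the IP and input libraries did not overlap but pair 1 gave a log2 ratio of 1.22 and pair 2 one of 2.63. At -1.41 (pair 1 minus pair 2, log2 units) this was the widest gap between pairs of all 62 genes, and with p = 3.04e-05 in the authors' deposited table Mrps12 lay nearest to the table's p-value limit. Mrps33 also differed between pairs: 20.0 and 29.4 in IP, against 3.90 and 2.67 in input (2.36 and 3.46). Mrps14 and Mrps2, both with bacterial counterparts, had log2 folds of 2.01 and 2.04 in the authors' deposited table.

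Bacterial S18 has 3 paralogs in the mitochondrial ribosome. Mrps18a had 29.2 and 34.0 in IP, against 4.55 and 5.03 in input, with log2 ratios of 2.68 and 2.76. Mrps18b had 23.8 and 24.1 in IP, against 4.65 and 4.99 in input (2.35 and 2.27). Mrps18c, the paralog at the bacterial position, had 19.3 and 18.6 in IP, against 5.66 and 6.30 in input (1.77 and 1.56). The order a, b, c was the same in both pairs.

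At the low end, Mrpl50, a mitochondria-specific large-subunit protein, had 8.96 and 7.22 in IP, against 3.08 and 2.30 in input. Its log2 ratios of 1.54 and 1.65 were the lowest of the set in mean, and its fold of 1.59 in the authors' deposited table lay nearest to the table's limit of 1. Mrpl47, a large-subunit protein with a bacterial counterpart, had 14.1 and 15.4 in IP, against 3.73 and 4.29 in input (1.91 and 1.84). With Mrps18c these made 3 genes under 2 in both pairs, against 13.5% of protein-coding rows. Mrpl18, a bacterial-type protein and 1 of the 8 lowest, had a log2 fold of 2.04 in the authors' deposited table.

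Mean input signals of the 62 genes ran from 1.20 to 16.1. Whether signals are scaled by length is not stated, so they give no order of abundance; they show how much signal a fold rests on. At the upper end, Mrpl33 had 68.0 and 77.7 in IP, against 13.4 and 18.8 in input. Mrps21, Mrps7 and Mrpl41 also had mean inputs above 7, at 9.41, 7.43 and 7.40, and Mrpl17 one of 15.5. At the lower end, Mrpl46 had 6.77 and 8.45 in IP, against 1.08 and 1.32 in input. Mrpl12, Mrpl44, Mrps28 and Mrps35 had mean inputs of 1.36, 1.45, 1.46 and 1.74, close to the table's lowest single input value of 1.00.

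**Figure D3:**
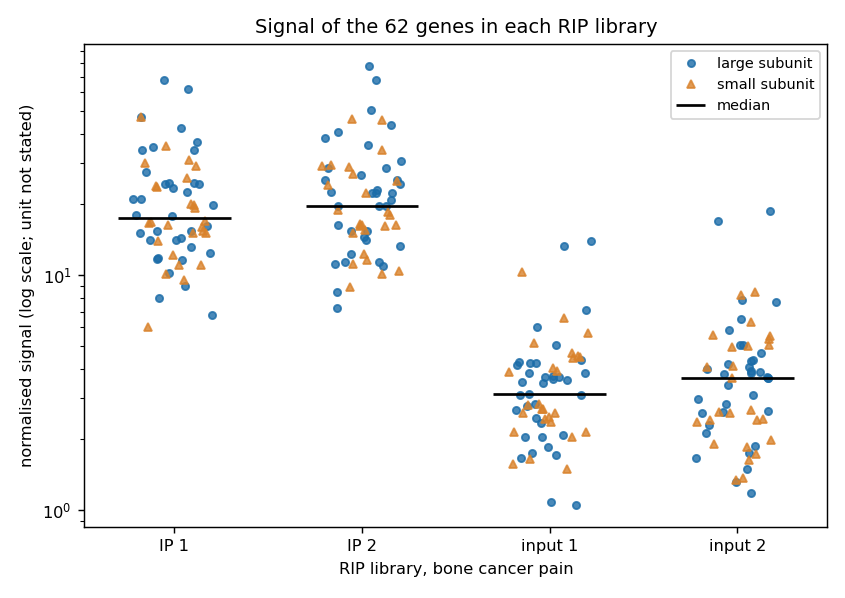
Normalised signal of the 62 genes (vertical log axis, unit not stated by the authors) in the 2 RIP IP libraries and the 2 input libraries of bone cancer pain. Circles are large-subunit and triangles small-subunit genes by symbol, and bars are medians; values spread more between the 2 inputs than between the 2 IP libraries.

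Pairs agreed less for these genes than for the table as a whole. The median absolute difference between log2 ratios of pair 1 and pair 2 was 0.30 over the 62 genes and 0.24 over all protein-coding rows, and 7 of the 62 (11.3%) differed by more than 1, against 3.23% of protein-coding rows. As a description across genes, which share the 4 libraries and are not independent, the pairs had a Pearson r of 0.306 over 62 genes and 0.667 over 8420. The median absolute difference was 0.29 log2 units between inputs and 0.14 between IP libraries for the 62 genes, and 0.22 and 0.097 for all protein-coding rows. The input gap was the larger in 42 of 62 genes (67.7%), against 72.3% of protein-coding rows. For 32 genes at or above the table's median input r was 0.412, and for the 30 below it 0.256. From the SD of the pair differences, the SD of a gene's mean over both pairs was 0.28 log2 units. Neighbours in the ranking, such as Mrpl12 and Mrpl37, were thus not separated. Mrps18a (rank 23, log2 fold 2.72 in the authors' deposited table) and Mrps18b (rank 46, 2.31) lay further apart in the ranking. The SD of 0.28 is a spread over all 62 genes, so it does not show whether these 2 were separated. Their difference was not tested.

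Genes that act with the mitochondrial ribosome were read from lists of other mitoribosomal proteins, translation factors and assembly factors. Of 6 mitoribosomal proteins with other symbols, 4 had a row. All 4 lay above the median in both pairs, beside 50% of the 62 genes and 38% of protein-coding rows. Gadd45gip1, a large-subunit protein near the tunnel exit, had 22.5 and 18.8 in IP, against 2.18 and 1.89 in input (log2 ratios 3.37 and 3.31). Chchd1, Dap3 and Ptcd3 of the small subunit had log2 folds of 2.90, 2.84 and 2.68 in the authors' deposited table. Gadd45gip1, Chchd1 and Dap3 thus lay above 2.80, the upper quartile of the 62 genes.

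Translation factors were more spread out. A row was found for 9 of 14, and their median log2 fold was 2.47 in the authors' deposited table. Lrpprc, which stabilises mitochondrial mRNAs, had 37.8 and 39.0 in IP, against 4.02 and 4.64 in input (3.24 and 3.07). The elongation factor Tufm had 28.3 and 28.7 in IP, against 3.99 and 3.68 in input (2.83 and 2.96). The release factors were lowest: Mtrf1l had 7.66 and 6.65 in IP, against 2.93 and 2.94 in input (1.39 and 1.17), and Mtrf1 had log2 ratios of 1.83 and 1.97. Of 23 assembly factors 11 had a row, and the authors' deposited table puts their median log2 fold at 2.5. Malsu1, which caps the immature large subunit, had 25.1 and 22.1 in IP, against 1.63 and 3.41 in input (3.95 and 2.69). Eral1, a chaperone of the small-subunit rRNA, had log2 ratios of 1.82 and 2.39.

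The ac4C peak lists gave the comparison of bone cancer pain with control. Lists held 2416 and 1173 peaks in bone cancer pain 2 and 3, against 1208 to 1802 in controls, while bone cancer pain 1 held 50417, of which 49281 had a fold of 10.6. Peaks were called by the authors for each IP and input pair, and a peak's fold is their own value. Read depth is unknown, since no totals were given. Among cell type markers, all 5 astrocyte, all 5 oligodendrocyte and all 5 inhibitory neuron genes had rows in the RIP table, with 3 of 5 general neuronal genes, and no muscle or bone gene did (0 of 4). A row required a log2 fold above 1 with p under 0.05, so a gene without a row can still be expressed. A missing row therefore does not show that a cell type was absent. The part of cell make-up in the values was not tested.

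As deposited, peaks fell in 51, 4 and 1 of the 62 genes in bone cancer pain 1, 2 and 3, against 1, 4 and 6 in controls 1, 2 and 3. The mean was 18.7 ± 28.0 genes in bone cancer pain and 3.67 ± 2.52 in controls (SD, n = 3 each), and the groups overlapped. A two-sided exact permutation test gave p = 0.9, and with 3 lists against 3 it cannot give less than 0.1. Bone cancer pain 1 set the difference: without that list it changed sign, to 1.17 fewer genes in bone cancer pain. In shares of the 62 the lists gave 82.3%, 6.45% and 1.61% in bone cancer pain, against 1.61%, 6.45% and 9.68% in controls. All protein-coding rows gave 81.8%, 20.3% and 10% in bone cancer pain, against 10.6%, 15.9% and 12.8% in controls. In bone cancer pain 1, 75 peaks lay in the 51 genes, 72 of them at the fold of 10.6 and all with a false discovery rate (FDR) of 0.0562. The other 3 were in Mrps26, Mrpl4 and Mrps7, at folds of 5.29, 4.23 and 3.53. In all, 53 of the 62 genes (85.5%) had a peak in some list, against 91.2% of protein-coding rows, and 9 had none.

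At an FDR of at most 0.05, peaks fell in 0, 2 and 1 genes in bone cancer pain, against 1, 4 and 6 in controls. The means were 1.0 ± 1.0 and 3.67 ± 2.52 (SD, n = 3 each), a difference of -2.67 with an exact permutation p of 0.3 (0.6 after Benjamini-Hochberg adjustment over 4 such tests). In shares of the 62 this was 0%, 3.23% and 1.61% in bone cancer pain, against 1.61%, 6.45% and 9.68% in controls. All protein-coding rows had 8.68%, 11.5% and 7.97% in bone cancer pain, against 8.33%, 9.79% and 9.45% in controls. The 62 genes lay below that background in 5 of 6 lists and above it in control 3. Of all protein-coding genes with such a peak, the 62 made up 0%, 0.207% and 0.149% in bone cancer pain, against 0.143%, 0.485% and 0.754% in controls (exact permutation p = 0.3).

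**Figure D4:**
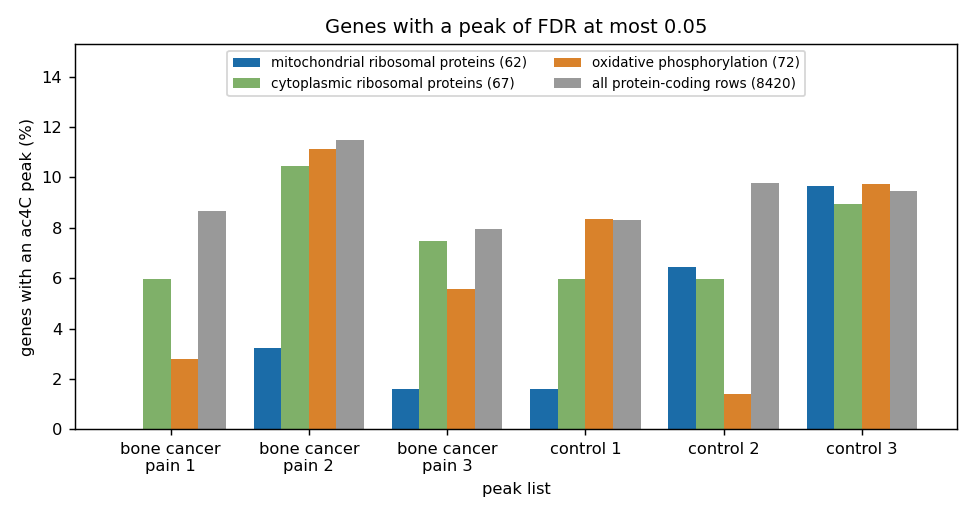
Percent of genes with an ac4C peak of FDR at most 0.05 (vertical axis) in each peak list, for mitochondrial ribosomal (blue), cytoplasmic ribosomal (green), oxidative phosphorylation (orange) and all protein-coding genes of the RIP table (grey). The blue bars run from 0% to 3.23% in bone cancer pain and from 1.61% to 9.68% in controls, and the 2 ranges overlap.

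Over all 6 lists, 15 peaks of that FDR lay in 14 of the 62 genes (22.6%), against 37.4% of protein-coding rows. The share was 34.3% of cytoplasmic ribosomal and 31.9% of oxidative phosphorylation genes. Of the 14 genes 10 are named for the large and 4 for the small subunit, beside 36 and 26 of all 62 genes. This split was not tested. None of the 14 had such a peak in more than 1 list, against 34.1% of the 3149 protein-coding genes with a peak. Exonic widths were 149 to 180 bp, and 9 of the 15 peaks (60%) were split over more than 1 exon block, beside 56.3% of all such peaks in protein-coding rows. In the authors' deposited table the median RIP log2 fold was 2.67 for the 14 genes and 2.60 for the other 48.

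In bone cancer pain, Mrpl12 carried the strongest peak, with a fold of 100 in list 3. In rn6 it spans chromosome 10 from 109658928 to 109661461 on the plus strand, in 3 blocks that cover 177 bp. Mrpl3, a protein near the peptidyl transferase centre, had a peak of fold 20.9 in list 2 (chromosome 8, 113603623 to 113603772, plus strand). Mrpl28, a bacterial-type large-subunit protein, had a peak of fold 10.5 in the same list (chromosome 10, 15495684 to 15495833, plus strand). Mrpl48 and Mrps2 also had peaks in list 2, at a fold of 10.5 and an FDR of 0.127. No list in controls held a peak in any of these 5 genes. As deposited, however, control lists held peaks in only 11 genes of the set. Each of those 11 except Mrpl17 and Mrps25 also had a peak in bone cancer pain 1, at an FDR of 0.0562. At an FDR of at most 0.05, 0 genes of the set had peaks in both groups, against 9.20% of protein-coding rows.

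In controls, Mrpl17 carried the strongest peak, with a fold of 140 in list 3. It lies on the minus strand of chromosome 1, from 170652971 to 170653394, and a further peak of fold 18.1 in the same list lies from 170652411 to 170652586. Other peaks of control 3 were in Mrps7 (fold 33.5), Mrpl35 (27.9), Mrpl15 (22.3), Mrps25 (16.7) and Mrps23 (6.98). Control 2 had peaks in Mrpl38 (32.6), Mrpl46 (26.1), Mrpl21 (13.0) and Mrps9 (4.35), and control 1 in Mrpl57 (32.1). Thus 6 of the 11 control genes came from a single list, and without control 3 the difference between groups was 1.5 genes fewer in bone cancer pain in place of 2.67.

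**Figure D5:**
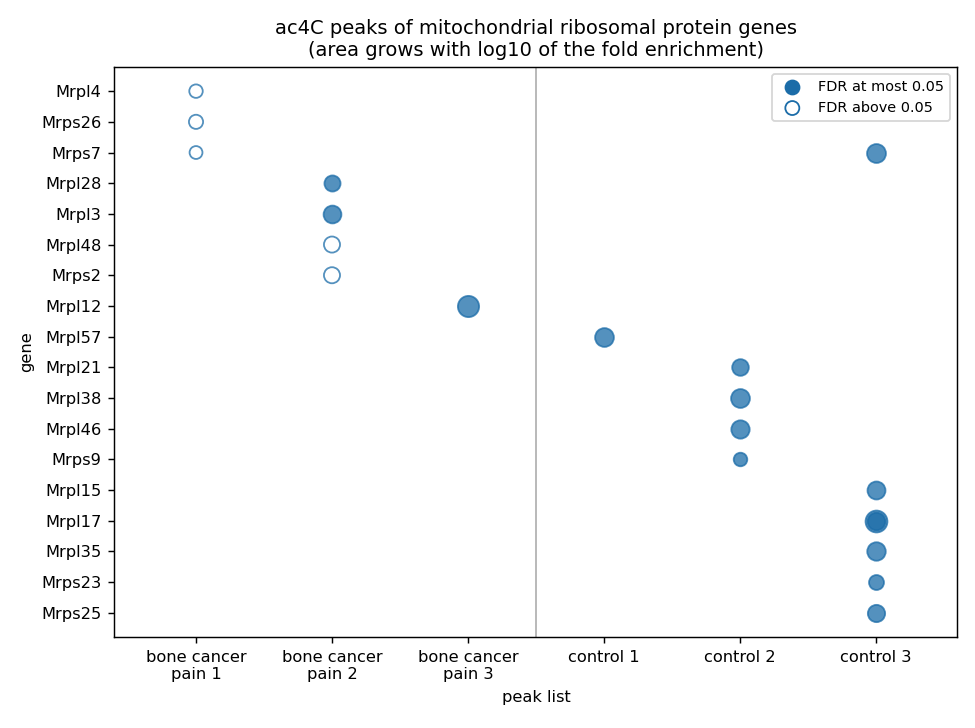
Genes (rows) with an ac4C peak in each list (columns, bone cancer pain left of control), leaving out the peaks of bone cancer pain 1 at its recurrent fold of 10.6. Filled circles have an FDR of at most 0.05 and their area grows with log10 of the fold; Mrps7 is the only row with circles in 2 lists, and its circle in bone cancer pain 1 is open.

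Overlap of at least 1 bp between lists was found at 4 places, all of them involving bone cancer pain 1. It took in 8 of the 92 peaks of the 62 genes (8.70%), against 11.3% of peaks in protein-coding rows. In Mrps7 a peak of bone cancer pain 1 shared 148 bp with the peak of control 3, and in Mrpl38 one shared 149 bp with the peak of control 2. In Mrpl46 the shared stretch with control 2 was 31 bp, and in Mrpl48 the peaks of bone cancer pain 1 and 2 met at 1 bp. With peaks of FDR at most 0.05 alone, 0 of 15 peaks overlapped, against 13.9% of 5228 peaks in protein-coding rows.

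Gained genes were defined by peaks in 2 or 3 bone cancer pain lists and none in the control lists, and lost genes by the reverse. As deposited, 5 of the 62 genes (8.06%) were gained, against 11.6% of protein-coding rows: Mrpl3, Mrpl12, Mrpl28, Mrpl48 and Mrps2. Each of the 5 owed its place in list 1 to peaks at the fold of 10.6. Lost genes numbered 0, against 0.76% of protein-coding rows. At an FDR of at most 0.05, 0 of the 62 were gained (1.82% of protein-coding rows) and 0 were lost (1.75%). For a single gene no test can pass with 3 lists against 3.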

How the data were processed

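Dorsal horn RNA was profiled by ac4C immunoprecipitation (3 bone cancer pain and 3 control replicates) and by RIP (2 IP and input pairs, bone cancer pain). The submitters' processing notes name the rn6 build and DESeq2, featureCounts 1.6.3, HOMER 4.10.4, HISAT2 2.1.0 and cutadapt 2.5, with no role assigned. The program that called peaks is not stated there. The authors' 6 peak lists give for each peak, per the file headers, a fold enrichment (IP over input, a ratio), the p-value and log10 values of p and FDR, treated as a score. The deposited RIP table gives a log2 fold, a p-value, an FDR and a normalised signal per library, of unstated unit. Its lowest log2 fold is 1.01 and its highest p-value 0.0488. Every per-sample column was mapped to a sample (0 not used). Depth is unknown.

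From these, log2 ratios per pair, medians, counts and peak overlaps (at least 1 bp of exon blocks on the same strand) were computed with Python 3.11.15, pandas 2.3.3, numpy 2.4.6 and scipy 1.17.1, and figures with matplotlib 3.10.9. The overlap, permutation and counting functions were tested on simulated data. IP was not tested against input, since the table holds only genes past a threshold. Groups of lists were compared by two-sided exact permutation tests, both as deposited and at an FDR of at most 0.05. Named genes were those with a peak outside bone cancer pain list 1, the 8 highest and 8 lowest RIP folds, the 5 highest and 5 lowest mean inputs, the 3 widest gaps between pairs, genes nearest to the table's limits, the S18 paralogs, stalk genes and Mrpl45, and list genes that are highest, lowest or carry a peak. Genes and lists were chosen with earlier results of these data known. Peak sequences and peak position within transcripts were not analysed here. Deviations of same-numbered lists of the 2 groups, at an FDR of at most 0.05, had correlations of -0.00396, 0.0130 and -0.000313. With so few genes holding a peak per list, these cannot show whether the numbers pair lists. No label states such a pairing, and the main tests treat numbers as names only.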

Additional observations from a re-analysis of the deposited data

How the results depend on the processing

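The difference in genes with a peak per list (bone cancer pain minus control) was 15 as deposited and changed sign at an FDR of at most 0.05 (-2.67), at 0.01 (-3.0) and without peaks at the fold of 10.6 in bone cancer pain 1 (-1.0). Leaving out single lists gave -1.17 to 23.8, the lowest without bone cancer pain 1. The matching share of peak-bearing genes differed by 0.0424 percentage points as deposited, -0.342 at FDR 0.05, -0.435 at FDR 0.01, -0.0898 without the fold of 10.6 and -0.146 to 0.165 without single lists; exact permutation p-values ran from 0.2 to 1 over these settings. With the FDR limit, leaving out lists (added after seeing the data) gave -4.0 to -1.5 genes and -0.501 to -0.195 points. With the replicate block the differences stay at 15 genes and 0.0424 points (exact sign-flip p = 1 for each), and at the FDR limit at -2.67 and -0.342 (p = 0.25, the smallest that 3 pairs allow). Unpaired, 3 lists against 3 cannot give less than 0.1. Neither test could reach 0.05, so they cannot show whether pairing matters. Gained genes numbered 0 at either FDR limit and without the fold of 10.6, and 0 to 5 without single lists: 0 without bone cancer pain 1 and 1 without bone cancer pain 2. Lost genes were 0 throughout. Recurring places numbered 2 when at least a share of 0.5 of the shorter peak had to overlap, 0 at FDR 0.05 and 1 without the fold of 10.6. The median RIP log2 fold of the 62 genes was 2.24 with a pseudocount of 1, 2.58 with 0.1, 2.48 for the 32 genes at or above the median input, and 2.59 to 2.60 in single pairs. Large minus small subunit was 0.27 in those 32 genes and 0.040 to 0.067 in single pairs. Genes at 3 or more numbered 0 with a pseudocount of 1, 1 at or above the median input and 8 to 10 in single pairs; genes under 2 numbered 13, 2 and 6 to 10. The cause of these shifts was not tested.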

Other observations

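Genes of protein import into mitochondria, a step that every mitochondrial ribosomal protein needs, were listed 13 of 17 in the RIP. Their median log2 fold in the authors' deposited table was 2.53. Tomm6, a small subunit of the outer-membrane pore, had signals of 263 and 267 in IP, against 27.0 and 22.4 in input (log2 ratios 3.28 and 3.58). Pmpcb, a subunit of the peptidase that removes import signals, had 28.7 and 33.2 in IP, against 3.28 and 2.79 in input (3.13 and 3.57). The chaperone Timm9 was lowest, with 7.89 and 15.0 in IP, against 3.35 and 3.65 in input (1.24 and 2.04), so its pairs differed.

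Genes that copy, transcribe and process mitochondrial DNA and its RNA were listed 7 of 12, with a log2 fold of 2.21 as the median of the authors' deposited table, and 3 of the 7 (42.9%) lay below the protein-coding median in both pairs, beside 38% of all protein-coding rows. Hsd17b10, a subunit of the mitochondrial RNase P, had 44.4 and 41.1 in IP, against 2.92 and 3.65 in input (3.93 and 3.49). Tefm, a transcription elongation factor, had 4.85 and 5.19 in IP, against 1.66 and 1.39 in input (1.54 and 1.90). Tfam, which packages mitochondrial DNA, had log2 ratios of 2.45 and 1.57.

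Peaks of FDR at most 0.05 were found in 5 of the 44 measured genes of the related lists (11.4%), against 37.4% of protein-coding rows. In bone cancer pain 3 they lay in Gadd45gip1 (fold 64.2) and Tomm20, an import receptor (fold 4.1). In control 2 they lay in Timm13, an import chaperone (17.9), and in the assembly factors Dhx30 (13.0) and Mettl17 (32.6). Both groups had such a peak in 0 of the 44 genes, against 9.20% of protein-coding rows.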
